A study of Mus musculus with 2 samples.

Results

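Goblet progenitors and goblet cells are 2 neighbouring classes of the mucus-secreting lineage of the intestinal epithelium, and their transcripts were compared within the jejunal crypts of 2 mice. The cells were those that the deposited annotation named Goblet progenitor or Goblet. They numbered 246 progenitors and 415 goblet cells, which makes 661 of 3275 annotated cells. Library 1 held 162 progenitors and 277 goblet cells, and library 2 held 84 and 138. Each library came from the crypts of 1 male mouse aged 12 months, of the strain labelled C57BL6/2J. Both mice were 375KO, a knockout of the microRNA miR-375 in every cell of the body. The knockout was made by CRISPR/Cas9 in hybrid embryos and then backcrossed to albino C57BL/6 mice. miR-375 itself was not analysed here, so the genotype rests on the labels, and wild-type libraries were not analysed here. All comparisons below are between cell classes of 375KO mice, and none measures an effect of losing miR-375. The p values rest on 2 mice and on classes that were drawn from the expression of the same cells. Those of the fits over all classes set a difference against a spread shared by 9 epithelial classes. A gene that differs alike in both mice can therefore have a high p value.

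Goblet cells make the mucus layer of the gut. They descend from stem cells at the crypt base, by way of dividing cells that take up the transcription factor Atoh1 when the Notch signal from their neighbours is low. Cells that start on this path present Notch ligands such as Dll1 to the cells around them, and then leave the cell cycle. Spdef, Klf4 and Foxa factors act in the maturation of the lineage. The gel-forming mucin Muc2 is folded and dimerised in the endoplasmic reticulum (ER), dressed with O-linked sugars in the Golgi and packed into granules. Transit-amplifying (TA) cells are the dividing cells of the crypt, and in these data they served as the reference for cycling cells. Enterocytes are the absorptive cells that TA cells give rise to.

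The class names were checked against markers. The 8 goblet markers (Muc2, Tff3, Fcgbp, Clca1, Zg16, Agr2, Spink4 and Spdef) were each highest in goblet cells among the 9 epithelial classes, in both libraries. Their summed level was 211000 and 199000 CPM in goblet cells (CPM, counts per 1000000 of all unique molecular identifiers, UMIs, of a class in library 1 and library 2). It was 51000 and 66100 CPM in progenitors and 370 and 167 CPM in TA cells. The 6 markers of cycling cells (Mki67, Top2a, Pcna, Mcm5, Cdk1 and Birc5) summed to 1070 and 882 CPM in progenitors, 67.7 and 110 CPM in goblet cells and 1420 and 1080 CPM in TA cells. Progenitors thus held both marker sets at once. Each of the classes was a single cluster of the authors, so these markers describe the classes and are not findings.

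Markers of other cells were present at low or mixed levels. The enterocyte marker sum was 1720 and 1300 CPM in progenitors and 2530 and 2390 CPM in goblet cells. Fabp2, an enterocyte fatty acid binding protein, made up 1350 and 1160 CPM and 2440 and 2360 CPM of these. The Paneth marker sum was 304 and 2460 CPM in progenitors and 5990 and 5800 CPM in goblet cells. The Paneth defensin Defa24 stood at 7.82 and 1570 CPM in progenitors and 3440 and 3680 CPM in goblet cells. Defa22, another defensin, was at 0 in the progenitors of both libraries and at 41.5 and 0 CPM in goblet cells. The enteroendocrine sum was 119 and 632 CPM in progenitors against 323 and 346 CPM in goblet cells. Of the 8 members of each list, 2 enterocyte markers were higher and 2 lower in progenitors, 1 Paneth marker (Mmp7) and 1 enteroendocrine marker (Sct) were lower, and no tuft marker passed. Among cells with a doublet score under 0.1, defined below, 1 enterocyte marker was lower and no other marker of these lists passed. The part of these transcripts in the results was not tested. In library 2 several secretory genes were at exactly 0 in TA cells. Agr2 stood at 96.6 and 0 CPM there, Zg16 at 21.3 and 0 and Clca1 at 4.15 and 0.

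Progenitors were also the larger and the more doublet-like profiles. The median progenitor held 28554.5 UMIs in library 1 and 19683 in library 2, against 13649 and 15708.5 in goblet cells. It held 5091.5 and 4017.5 detected genes, against 2974 and 2988.5. No cell of either class was among the doublets that the authors called. Their doublet score, which is higher for a profile that looks like a mix of 2 cells, had a median of 0.201 and 0.0905 in progenitors and of 0.0215 and 0.0129 in goblet cells. A score under 0.1 was held by 47 of 162 (29.0%) and 44 of 84 (52.4%) progenitors, and by 89.5% and 81.9% of goblet cells. Within library 1, progenitors with the lower scores had a median of 18650 UMIs and a cell cycle share of 1.07% of UMIs, against 35274 UMIs and 0.606% at the higher scores. In library 2 the same medians were 18216.5 UMIs and 0.471%, against 22861 UMIs and 0.494%. Counts for most of the gene lists are therefore also given for the cells with a score under 0.1, called the doublet score limit below.

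**Figure D1:**
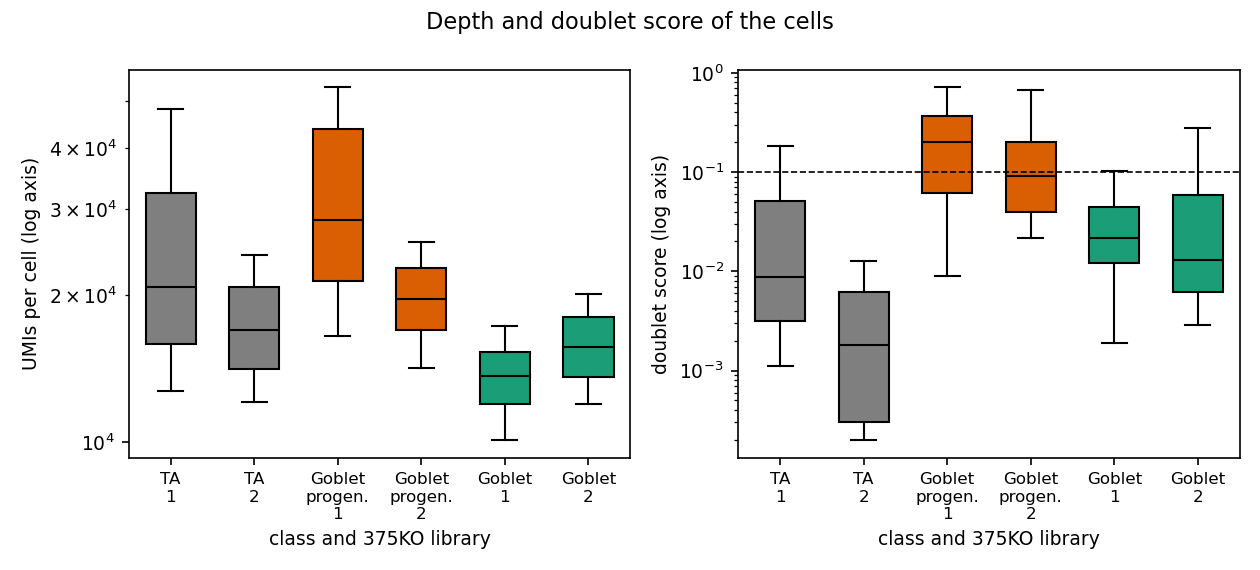
UMIs per cell (left, log axis) and doublet score (right, log axis) of TA cells, goblet progenitors and goblet cells in each 375KO library. Boxes span the quartiles with the median as a line, whiskers reach the 10th and 90th percentiles, and the dashed line marks a score of 0.1; progenitors have the highest medians of the 3 classes on both axes in both libraries.

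The share of progenitors in the lineage was close in both mice. Progenitors made up 36.9% of the progenitors and goblet cells of library 1 (95% exact binomial interval 32.4 to 41.6%) and 37.8% of those of library 2 (31.4 to 44.6%). The mean was 37.4% ± 0.662 (SD, n = 2). The difference of 0.936 percentage points lay within the counting error (two-sided Fisher exact test between the libraries, p = 0.865). This test counts cells and compares 2 libraries, so it says nothing of mice in general. Among cells with a doublet score under 0.1 the shares were 15.9% and 28.0%. Among cells of 10000 to 20000 UMIs they were 11.7% and 26.7%, with 33 of 162 progenitors of library 1 and 43 of 84 of library 2 kept. The share thus depended on which cells were counted. Both limits cut on a measure that differed between the libraries' progenitors, so no difference between the mice is read from them.

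Across all genes, the 2 classes stood far apart. Of 11013 genes tested, 3208 (29.1%) passed an adjusted p of 0.05 in edgeR's quasi-likelihood test with Benjamini-Hochberg adjustment, 1451 (13.2%) of them higher and 1757 (16%) lower in progenitors. Fold changes below are log2 values of progenitors over goblet cells after TMM scaling, which allows for the large share that a few mucus genes take in goblet cells. The 10 most abundant genes held 25.7% and 24.3% of goblet UMIs against 12.4% and 12.2% of progenitor UMIs. TMM put the median of all genes at -0.01. Scaling by total UMIs put it at 0.487, and 84.3% of its calls were then higher in progenitors, against 45.2% here. That scaling called 3676 of the 11013 genes higher and 687 lower. Levels in CPM carry no TMM factor, so a gene can have a slightly higher CPM in progenitors and a fold change just below 0. Under the doublet score limit 2138 of 10829 genes passed, 968 higher and 1170 lower in progenitors. Of the 2138, 1956 were also among the 3208. Without the mouse as a term in the model 1044 passed, of which 1043 were among the 3208.

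Nearly all cell cycle genes were higher in progenitors. Of 30 S phase genes, 29 were higher in progenitors and none was lower, with a median log2 fold change of 2.55. All 30 genes of G2 and mitosis were higher, with a median of 2.91. Over all genes tested, 13.2% were higher and the median was -0.01. The summed level of the S phase genes was 1580 and 1140 CPM in progenitors against 193 and 234 CPM in goblet cells. For G2 and mitosis it was 5200 and 4150 CPM against 841 and 890 CPM. In both libraries the progenitor sums lay far above the goblet sums. They stood at 88.2% and 84.9% (S phase) and 73.7% and 74.6% (G2 and mitosis) of the TA sums. The exception in S phase was Ung, a uracil-DNA glycosylase, at 0.73 (adjusted p = 0.156).

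Single members showed the size of this difference. Top2a, the topoisomerase that untangles chromosomes before they part, stood at 297 and 244 CPM in progenitors and 6.08 and 13.4 CPM in goblet cells. The groups did not overlap, and the log2 fold change was 4.41 (SE 0.61, adjusted p = 0.000665). Mcm5, a subunit of the replicative helicase, stood at 57.0 and 52.2 CPM against 1.59 and 4.92 CPM, which made 3.75 on the log2 scale (SE 0.38, adjusted p = 2.29e-08). Both genes were near their TA levels of 406 and 310 CPM and of 63.5 and 49.8 CPM. Mki67, the proliferation marker, stood at 243 and 188 CPM against 19.8 and 26.4 CPM (2.76, SE 0.58, adjusted p = 0.0075). Cdk1, the kinase that starts mitosis, stood at 161 and 103 CPM against 9.52 and 8.05 CPM (3.44, SE 0.31, adjusted p = 1.27e-08). Prc1, a spindle midzone protein outside the lists, was nearly absent from goblet cells, with 477 and 110 UMIs in progenitors and 0 and 3 UMIs in goblet cells. The ratio of its pooled rates was 167, with a 95% exact counting interval of 57 to 814. The smallest called differences were 0.48 for the tubulin Tubb4b, 0.55 for the histone mRNA binding protein Slbp and 1 for the cyclin Ccnb2. All 30 G2 and mitosis genes and 29 of the S phase genes were also higher under the doublet score limit.

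The proximal promoters of 2 of these genes are shown because each carries letters found at a higher share of its list than of all genes. They come from RefSeq on build GRCm38.p6 and run from 250 bases before to 50 bases after the transcription start, written in the direction of the gene. Capitals in Mcm5 mark the reverse complement of a word bound by E2F factors. Capitals in Top2a mark the CHR element (cell cycle genes homology region) on either strand. The Mcm5 window is chr8:75109259-75109558 on the plus strand, with its match starting 149 bases before the start of the gene. The Top2a window is chr11:99024140-99024439 on the minus strand, with matches 179 and 23 bases before the start.
Mcm5: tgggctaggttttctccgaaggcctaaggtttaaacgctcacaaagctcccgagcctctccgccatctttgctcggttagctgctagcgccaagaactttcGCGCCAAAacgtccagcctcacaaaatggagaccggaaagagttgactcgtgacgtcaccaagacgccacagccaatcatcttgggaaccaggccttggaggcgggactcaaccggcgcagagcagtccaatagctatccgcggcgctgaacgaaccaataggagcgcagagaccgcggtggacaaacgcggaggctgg
Top2a: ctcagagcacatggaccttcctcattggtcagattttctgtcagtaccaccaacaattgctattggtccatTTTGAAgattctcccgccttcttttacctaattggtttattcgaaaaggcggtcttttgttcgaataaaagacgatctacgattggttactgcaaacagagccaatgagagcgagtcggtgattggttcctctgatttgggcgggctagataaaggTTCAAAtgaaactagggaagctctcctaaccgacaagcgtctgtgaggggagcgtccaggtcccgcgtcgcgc
One of the E2F words TTTCCCGC and TTTGGCGC, on either strand, was present at 9 of 25 matched S phase genes (36%), namely Mcm3, Mcm5, Mcm6, Mcm7, Cdt1, Dnmt1, Cdc6, Hells and Pola1. They were present at 0 of 27 matched G2 and mitosis genes and at 486 of all 27025 genes of the table (1.8%), counting a gene with several starts once. The CHR word TTTGAA was present at 20 of 27 G2 and mitosis genes (74.1%), at 3 of 25 S phase genes (12%) and at 5466 of all genes (20.2%). The E2F and CHR words did not overlap each other in these windows. A match describes letters and shows no binding.

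**Figure D2:**
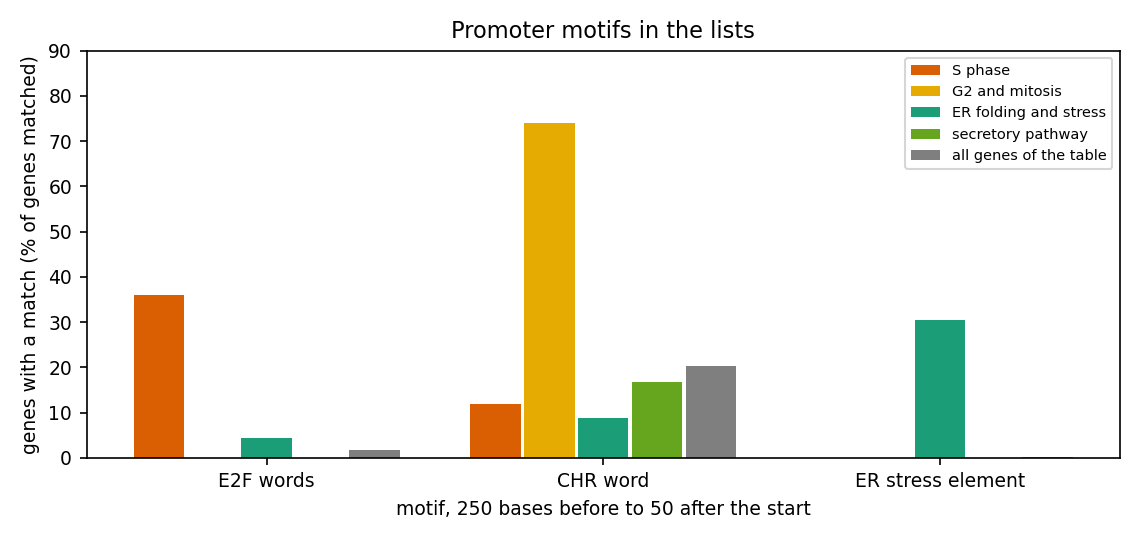
Share of genes (%) whose promoter window holds each motif, for 4 gene lists and for all genes of the promoter table; bars start at 0. The E2F words stand out in S phase genes (36%), the CHR word in G2 and mitosis genes (74.1%) and the ER stress element in ER folding genes (30.4%).

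The regulators around the cycle had no common direction, with a median log2 fold change of 0.05. Of 19 D cyclins, CDKs and inhibitors tested, 5 were higher and 4 lower in progenitors, against 13.2% and 16% of all genes. The other 10 did not pass, and counts this small are not read as a result about the list. The higher ones were the kinases Cdk4 (0.94) and Cdk6 (0.84), the inhibitors Cdkn2c (1.53) and Cdkn2d (1.5) and the pocket protein Rbl1 (1.51). The lower ones were Ccnd3 (-0.96), the antiproliferative Btg1 (-0.89) and Btg2 (-1.94), and Mxd4 (-1.43), a Max partner that opposes Myc. Btg2 stood at 194 and 99.6 CPM in progenitors and 569 and 246 CPM in goblet cells, so goblet cells were higher in each library, while the progenitors of library 1 and the goblet cells of library 2 came near each other. Under scaling by total UMIs the counts were 8 higher and 2 lower, where 3676 of all 11013 genes were higher and 687 lower. Under the doublet score limit they were 5 and 5.

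Mucus genes were far below their goblet level in progenitors and far above their TA level. The summed level of the 12 mucus components was 41500 and 57000 CPM in progenitors and 182000 and 174000 CPM in goblet cells, so progenitors stood at 22.8% and 32.8% of the goblet sum. In TA cells it was 948 and 714 CPM. Of 11 components tested, 3 were lower, 1 was higher and 7 did not pass, with a median log2 fold change of -2.22. The share of all genes that were lower was 16%. Clca1, a secreted protease of the mucus, stood at 598 and 376 CPM against 2430 and 1610 CPM (-2.55, SE 0.54, adjusted p = 0.00755). The tissue kallikrein Klk1 (278 and 223 against 1060 and 768 CPM, -2.36) and Sval1 (3.72 and 6.6 against 21.9 and 33.5 CPM, -2.94) were the other lower members. In each of the 3 the lowest goblet library was above the highest progenitor library. Under the doublet score limit 3 of the 11 components were lower and 1 was higher.

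The most abundant mucus genes had the same direction in both mice and large errors. Muc2 (chr7:141690340-141754693, plus strand, mm10) stood at 2890 and 1690 CPM in progenitors and 9530 and 4040 CPM in goblet cells, or -1.96 as log2 fold change (SE 0.79, adjusted p = 0.105). Goblet cells were higher in both libraries and the groups did not overlap. Fcgbp, which is linked to Muc2 in the gel, stood at 4390 and 2410 CPM against 15000 and 7700 CPM (-2.22, adjusted p = 0.189). Zg16, a lectin that binds bacteria, stood at 16400 and 10900 CPM against 83500 and 57500 CPM (-2.84, adjusted p = 0.309), and the trefoil peptide Tff3 at 9970 and 25300 CPM against 42500 and 67200 CPM (-2.22, adjusted p = 0.0686). None of the 4 passed in the fit over the 18 sums of the 9 epithelial classes, whose spread is shared across classes. That fit includes TA cells, in which library 2 had Zg16 and Clca1 at 0, and the part of these zeros in the errors was not tested. In the fit of the 4 progenitor and goblet sums alone, with 1 residual degree of freedom, 9 mucus components were lower, Muc2 at adjusted p = 8.28e-09 and Zg16 at 9.83e-14.

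Dmbt1 went the other way. This secreted scavenger receptor protein stood at 409 and 340 CPM in progenitors, 11.4 and 50.5 CPM in goblet cells and 652 and 531 CPM in TA cells, or 3.23 as log2 fold change (SE 0.59, adjusted p = 0.00363). It was not called in the 4 sums alone (adjusted p = 0.243).

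Other goblet genes followed the mucus genes. Of 26 other goblet markers, 22 were lower and none was higher, with a median of -1.90, against 16% lower over all genes. Rep15, a partner of Rab15, stood at 180 and 112 CPM against 678 and 460 CPM (-2.47, adjusted p = 1.14e-06). Lrrc26, a subunit that opens BK potassium channels, stood at 110 and 60 CPM against 395 and 245 CPM (-2.42, SE 0.19, adjusted p = 3.83e-10). In both genes the groups were apart in both libraries. Agr2, the disulfide isomerase that works on Muc2, stood at 10200 and 9900 CPM against 31500 and 26900 CPM and did not pass (-1.95, adjusted p = 0.473; 3.28e-10 in the 4 sums alone). With the doublet score limit 23 of the 26 were lower.

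The enzymes that build mucin O-glycans were lower as well. Of 22 tested, 15 were lower and 1 was higher, with a median of -1.34, against 16% and 13.2% of all genes. Galnt12, which starts O-glycan chains, stood at 135 and 121 CPM in progenitors, 339 and 294 CPM in goblet cells and 7.94 and 6.65 CPM in TA cells (-1.80, SE 0.19, adjusted p = 1.91e-08). C1galt1c1, the chaperone of the core 1 enzyme, stood at 97.5 and 74.4 CPM against 273 and 176 CPM (-1.87, adjusted p = 2.41e-09). Gcnt3, a branching enzyme of the core structures, stood at 105 and 112 CPM against 286 and 227 CPM (-1.74, adjusted p = 4e-08). In each of the 3 enzymes goblet cells were higher in both libraries, with no overlap. The one higher enzyme was Gcnt4, with 49 and 6 UMIs in progenitors and 0 and 1 in goblet cells, a ratio of pooled rates of 47 (95% exact counting interval 8.1 to 1890). Under scaling by total UMIs 11 enzymes were lower, and under the doublet score limit 15 were lower and none was higher.

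ER folding genes were lower in progenitors by a smaller step. Of 30 genes of ER folding and stress, 26 were lower and none was higher, with a median of -1.30. Over all genes tested, 16% were lower and 13.2% higher. The list summed to 6630 and 6150 CPM in progenitors, 11200 and 10100 CPM in goblet cells and 3550 and 2850 CPM in TA cells, so progenitors reached 59.4% and 61.1% of the goblet level. This was a larger fraction than for the mucus components. Hspa5 (BiP), the main ER chaperone, stood at 625 and 490 CPM against 1200 and 812 CPM (-1.32, SE 0.16, adjusted p = 2.73e-07). Pdia6, a disulfide isomerase, stood at 401 and 409 CPM against 872 and 813 CPM (-1.54, SE 0.17, adjusted p = 5.04e-08). Hsp90b1, the ER form of Hsp90, stood at 757 and 600 CPM against 937 and 814 CPM (-0.86, adjusted p = 0.000183). No progenitor value reached a goblet value in any of the 3. Among the sensors of ER stress, the goblet-restricted Ern2 was lower (73.1 and 60 against 187 and 127 CPM, -1.73, adjusted p = 0.00031), while Ern1 and Atf6 did not pass. Under scaling by total UMIs 21 of the 30 were lower, and under the doublet score limit 25 were.

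The promoters of Pdia6 and Hsp90b1 are shown because both carry the ER stress element, which is written CCAAT, 9 bases of any kind, then CCACG. It is the element to which Atf6, together with NF-Y, is known to bind. Capitals mark both ends of the element, on either strand. The Pdia6 window is chr12:17266339-17266638 on the plus strand, with the element 98 bases before the start. The Hsp90b1 window is chr10:86705395-86705694 on the minus strand, with elements 212 and 107 bases before the start.
Pdia6: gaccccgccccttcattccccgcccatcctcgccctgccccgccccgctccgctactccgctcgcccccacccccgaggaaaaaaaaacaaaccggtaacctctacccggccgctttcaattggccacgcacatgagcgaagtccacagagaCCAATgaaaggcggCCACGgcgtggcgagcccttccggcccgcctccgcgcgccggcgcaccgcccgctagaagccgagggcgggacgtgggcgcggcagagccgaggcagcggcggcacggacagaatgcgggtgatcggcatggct
Hsp90b1: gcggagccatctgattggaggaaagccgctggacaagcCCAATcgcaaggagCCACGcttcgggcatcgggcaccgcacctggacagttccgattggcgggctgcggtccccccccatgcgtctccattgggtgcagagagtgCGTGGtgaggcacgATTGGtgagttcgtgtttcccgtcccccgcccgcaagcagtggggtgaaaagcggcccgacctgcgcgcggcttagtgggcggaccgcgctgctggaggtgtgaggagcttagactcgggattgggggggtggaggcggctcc
The element was found at 7 of 23 matched ER genes (30.4%), namely Hspa5, Calr, Hsp90b1, Canx, Pdia6, Dnajc3 and Creld2, and at 37 of all 27025 genes (0.137%). It was at 0 of the 24 matched genes of the secretory pathway list, which were lower too. Of the 7 genes, all but Canx (-0.15, adjusted p = 0.579) were lower in progenitors.

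All 32 genes tested of the secretory pathway and granule release were lower, with a median of -1.15, against 16% lower over all genes. Their sum stood at 60.6% and 66.9% of the goblet level. The largest steps were in proteins of traffic and release. Rab27b, a GTPase of granule docking, stood at 86.4 and 62.4 CPM against 247 and 143 CPM (-1.87, SE 0.19), and Rab27a was lower too (-2.40). The receptor Kdelr3, which returns proteins to the ER, stood at 37.0 and 30.6 CPM against 128 and 96.1 CPM (-2.26, adjusted p = 3.74e-09). The translocation channel subunit Sec61b stood at 793 and 1280 CPM against 1360 and 1790 CPM (-1.12, adjusted p = 1.66e-06). Goblet cells were higher in each library for all 4, while library 2 had the higher Sec61b in both classes. Under scaling by total UMIs 21 of the 32 were lower, and under the doublet score limit 28 were.

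**Figure D3:**
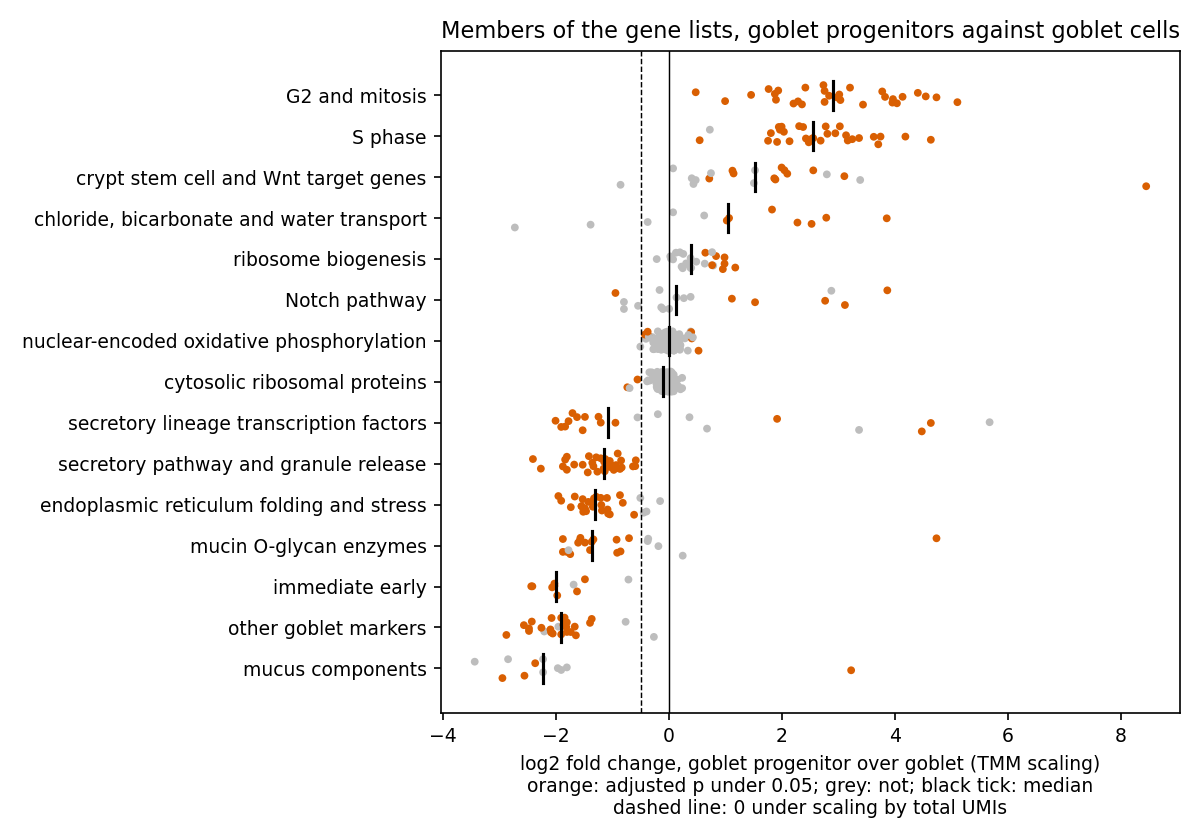
Log2 fold change (x axis, progenitors over goblet cells, TMM scaling) of each tested member of 15 gene lists. Each point is a gene, orange where its adjusted p is under 0.05, the black tick is the list's median, and the dashed line is where 0 would lie with scaling by total UMIs; the cycle lists lie to the right (medians 2.91 and 2.55) and the mucus, glycan, ER and secretory lists to the left (medians from -2.22 to -1.15).

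Transcription factors of the secretory lineage split. Of 20, 11 were lower in progenitors and 3 were higher, against 16% and 13.2% of all genes. Atoh1 (chr6:64729125-64731245, plus strand), the factor that sets the secretory fate, stood at 90.3 and 75.0 CPM in progenitors, 212 and 203 CPM in goblet cells and 1.42 and 1.05 CPM in TA cells (-1.83, SE 0.20, adjusted p = 3.55e-08). Spdef (chr17:27714352-27728955, minus strand), which drives goblet maturation, stood at 83.9 and 90.6 CPM against 211 and 190 CPM, with 2.37 and 0.175 CPM in TA cells (-1.70, SE 0.26, adjusted p = 6.43e-05). Both were low in TA cells and intermediate in progenitors, with no overlap between the classes. Klf4 stood at 224 and 185 CPM against 522 and 382 CPM (-1.62, adjusted p = 9.85e-06), and Foxa3 at 87.5 and 86.4 CPM against 259 and 233 CPM (-2, adjusted p = 3.49e-07). Xbp1, the factor that expands the ER, was lower by 1.20 on the log2 scale (191 and 195 against 315 and 315 CPM, adjusted p = 1.14e-06). Foxa2 stood at 22.1 and 22.2 CPM against 22.5 and 23.7 CPM (-0.55, adjusted p = 0.0837), and Sox9 at 67.8 and 67.2 CPM against 63.2 and 44.3 CPM (-0.19, adjusted p = 0.565). Neither factor passed, and under the doublet score limit 8 factors of the list were lower and 3 higher. In library 1 the CPM of Foxa2 and Sox9 was close in both classes.

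The 3 factors that were higher in progenitors were Sox4, Neurog3 and Insm1. Sox4, a factor of early secretory and tuft cells, stood at 109 and 107 CPM in progenitors, 16.1 and 25.9 CPM in goblet cells and 91.4 and 74.5 CPM in TA cells (1.92, SE 0.32, adjusted p = 0.000289). Neurog3, the factor of enteroendocrine fate, had 67 and 39 UMIs in progenitors and 3 and 0 in goblet cells, a ratio of pooled rates of 30.2 (95% exact counting interval 10.1 to 149; adjusted p = 0.0136). Insm1, another enteroendocrine factor, had 31 and 16 UMIs against 1 and 0, a ratio of 40.2 (6.87 to 1620; adjusted p = 7.21e-05). Few cells carried them. Neurog3 was seen in 7 of 162 and 7 of 84 progenitors, with up to 22 and 13 UMIs in 1 cell. The median mucus share was 0.489% and 0.956% of UMIs in the cells with Neurog3 and 3.34% and 4.99% in those without. The incretin Gip was seen in fewer cells still. In library 2, 432 of its UMIs lay in 2 progenitors, 417 of them in 1 cell, and the progenitors of library 1 had none. The hormone Sct was more abundant, at 95.9 and 257 CPM in progenitors, below its goblet level of 323 and 339 CPM.

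A minority of the Notch genes differed between the classes. Of 17 tested, 5 were higher in progenitors and 1 was lower, with a median of 0.14, against 13.2% higher and 16% lower over all genes. The receptor Notch1 stood at 15.1 and 12.6 CPM in progenitors, 0.529 and 0.894 CPM in goblet cells and 23.0 and 24.3 CPM in TA cells (3.87, SE 0.64, adjusted p = 3.26e-05). The feedback target Nrarp stood at 23.5 and 38.4 CPM against 0.529 and 5.36 CPM (3.12, SE 0.37, adjusted p = 1.62e-07), and the target Hes1 at 53.0 and 65.4 CPM against 11.6 and 30.4 CPM (1.12, SE 0.26, adjusted p = 0.0016). In these 3 genes progenitors lay above goblet cells in both mice, and below the TA level by differences that did not pass. The ligand Jag1 (1.53) and Notch2 completed the higher genes. Notch2 had 20 and 11 UMIs in progenitors and 0 and 3 in goblet cells, a ratio of pooled rates of 8.84 (95% exact counting interval 2.76 to 45.2). The ligand Dll1 (chr17:15367354-15376872, minus strand) stood at 70.2 and 73.2 CPM in progenitors, 117 and 77.3 CPM in goblet cells and 6.52 and 5.77 CPM in TA cells. Its log2 fold change was -0.94 (SE 0.23, adjusted p = 0.00239), and it was -0.16 (adjusted p = 0.706) under the doublet score limit. Dll4 stood at 21.6 and 21.0 CPM against 32.0 and 18.3 CPM and did not pass (-0.79, adjusted p = 0.0526). As a class, progenitors thus held transcripts of ligand, receptor and targets. Whether single cells held them together was not tested. Under the doublet score limit 2 of the 17 Notch genes were higher, a share near that of all genes.

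About as many genes of crypt stem cells and Wnt signalling passed as did not. Of 21 tested, 11 were higher in progenitors, none was lower and 10 did not pass, with a median of 1.53, against 13.2% higher over all genes. Their sum was 582 and 533 CPM in progenitors against 298 and 210 CPM in goblet cells. Axin2, a direct Wnt target, stood at 42.1 and 37.8 CPM against 5.55 and 8.49 CPM (2.10, SE 0.30, adjusted p = 2.26e-06), near its TA level of 46.4 and 57.2 CPM. Smoc2 stood at 55.3 and 63.6 CPM against 16.4 and 22.8 CPM (1.13, adjusted p = 0.00133). The stem cell receptor Lgr5 was low everywhere here, at 5.21 and 1.8 CPM against 1.06 and 0 CPM (2.05, adjusted p = 0.0285). Olfm4, a stem cell marker, had 131 and 3 UMIs in progenitors and none in goblet cells, at least 38.2-fold higher against a floor of 3 UMIs over both goblet sums. Nearly all of its progenitor UMIs came from library 1. Among the ephrin ligands, Efna4 was higher (13.6 and 10.8 against 2.38 and 0.447 CPM, 2.40) and Efnb2 lower (-0.83). The Eph receptor Ephb2 was higher (0.72, adjusted p = 0.0349). Under the doublet score limit 8 of the 21 stem and Wnt genes were higher.

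Some transporters of chloride, bicarbonate and water were higher in progenitors too. Of 13 tested, 7 were higher, none was lower and 6 did not pass, with a median of 1.03, against 13.2% higher over all genes. The chloride channel Cftr stood at 60.7 and 62.4 CPM in progenitors, 4.49 and 12.1 CPM in goblet cells and 87.0 and 92.3 CPM in TA cells (2.53, SE 0.37, adjusted p = 3.22e-05). The potassium channel Kcnq1 stood at 41.9 and 60 CPM against 0.264 and 5.81 CPM (3.86, adjusted p = 0.000201), and the bicarbonate cotransporter Slc4a4 at 51.6 and 36.0 CPM against 3.17 and 6.71 CPM (2.79, adjusted p = 0.000267). In all of them progenitors lay closer to TA cells than to goblet cells in both libraries. The chloride loader Slc12a2 differed from them, at 251 and 194 CPM against 210 and 97.0 CPM (0.08, adjusted p = 0.921). The number higher was 4 of the 13 under the doublet score limit.

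The Zfp36 family of proteins, which bind AU-rich messages and hasten their decay, moved apart within the lineage. The study examined its member Zfp36l2 as a target of miR-375. Zfp36l2 (chr17:84183931-84187947, minus strand) stood at 143 and 141 CPM in progenitors, 43.4 and 38.4 CPM in goblet cells and 174 and 150 CPM in TA cells (1.30, SE 0.20, adjusted p = 1.15e-05). It was seen in 84.6% and 83.3% of progenitors, 37.5% and 34.8% of goblet cells and 87.5% and 86.1% of TA cells. After each cell was thinned to 5000 UMIs these shares were 40.1% and 47.6%, 16.7% and 14.5%, and 47.5% and 52.6%, in the same order of classes. Zfp36 itself was lower in progenitors, at 41.1 and 36.6 CPM against 78.5 and 77.8 CPM (-1.49, SE 0.31, adjusted p = 0.00182). Zfp36l1 did not pass, at 73.5 and 67.2 CPM against 57.4 and 53.6 CPM (-0.15, adjusted p = 0.558). The small GTPase gene Arl4c had 8 and 1 UMIs in progenitors and none in goblet cells (adjusted p = 0.104), too few for a direction.

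Immediate early genes, which cells switch on within minutes of a stimulus or of dissociation, were lower in progenitors. Of 10 tested, 8 were lower and none was higher, with a median of -1.99, against 16% lower over all genes. Their sum was at 37.1% and 43.5% of the goblet level. Jund stood at 322 and 307 CPM against 613 and 636 CPM (-1.48, SE 0.17, adjusted p = 6.08e-08) and Fos at 237 and 172 CPM against 725 and 458 CPM (-2.02, adjusted p = 0.0263). Goblet cells were higher in both mice. Under the doublet score limit 5 were lower, and Fos was not among those that passed (adjusted p = 0.091).

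Genes of growth and energy depended on the scaling. Over all genes tested, 13.2% were higher and 16% lower. Under scaling by total UMIs 3676 of all 11013 genes were higher and 687 lower. Under the doublet score limit 968 of all 10829 genes were higher and 1170 lower. Of 25 ribosome biogenesis genes, 7 were higher and none was lower, with a median of 0.39. Under scaling by total UMIs 21 were higher, and under the doublet score limit 5 were. Nucleolin (Ncl) stood at 612 and 361 CPM against 173 and 173 CPM (0.96). Of 81 ribosomal protein genes tested, 2 were lower and none was higher here, and 34 were higher under scaling by total UMIs. Of 75 nuclear genes of oxidative phosphorylation, 3 were higher and 3 lower. Under total UMIs 42 were higher, and under the doublet score limit 5 were lower. No direction is given for the ribosomal protein and oxidative phosphorylation lists, since the scalings differ on it. None of the 13 mitochondrially encoded genes passed in edgeR's test (6 were higher under scaling by total UMIs).

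**Figure D4:**
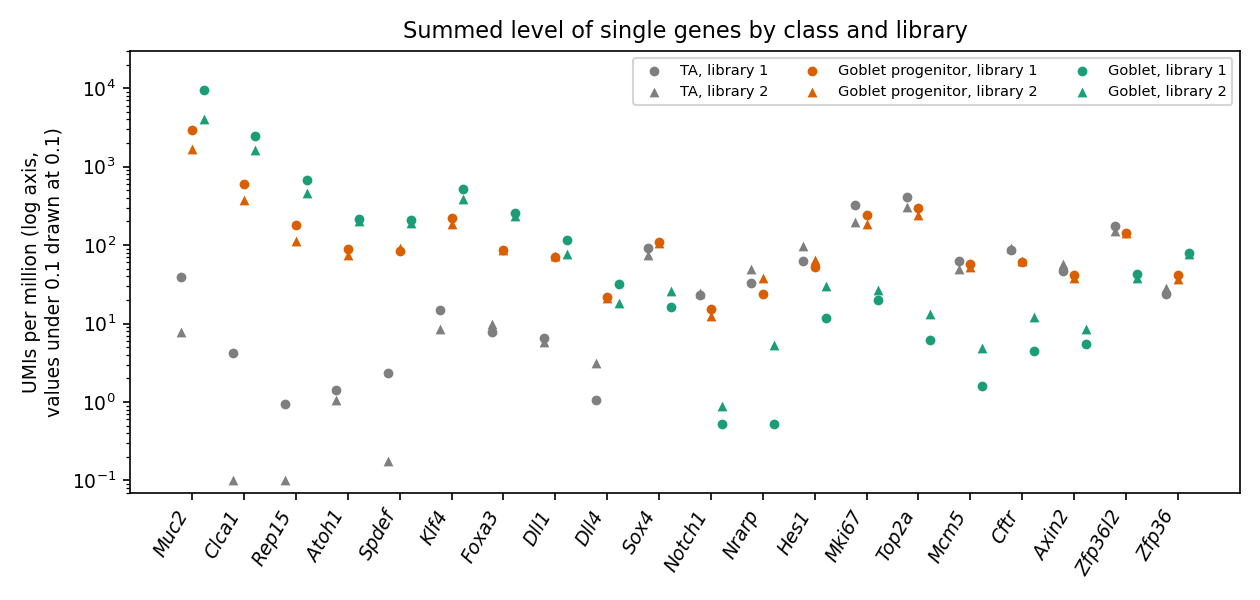
Level in CPM (y axis, log scale, values under 0.1 drawn at 0.1) of 20 genes in TA cells, goblet progenitors and goblet cells, with 1 point per class and library. From Muc2 to Foxa3 the level steps up from TA cells to goblet cells, while from Mki67 to Axin2 progenitors lie near TA cells and goblet cells lie below.

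The largest differences by rank were named by rule among genes with a mean of at least 50 CPM in either class, 14 in each direction. The higher genes were Prc1, Nusap1, Aurkb, Top2a, Pbk, Kif11, Kcnq1, Otc, Mcm5, Rrm1, Hells, Smc2, Fgfbp1 and Cdk1. All but Kcnq1, Otc and Fgfbp1 act in DNA replication, chromosome structure or cell division. Pbk, a mitotic kinase, stood at 61.8 and 58.8 CPM against 1.32 and 3.58 CPM (4.28, SE 0.34, adjusted p = 3.83e-10). Otc, the urea cycle enzyme that makes citrulline, stood at 178 and 60.6 CPM in progenitors, 2.38 and 10.7 CPM in goblet cells and 309 and 129 CPM in TA cells (3.84, SE 0.67, adjusted p = 0.0025; 0.311 in the 4 sums alone). Fgfbp1, a carrier of growth factors, stood at 101 and 49.8 CPM against 3.17 and 7.6 CPM (3.47, adjusted p = 0.00023). In each of these the progenitors of both libraries were above the goblet cells of both.

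The lower genes by the same rule were Clps, Ccl6, Tm4sf4, Mptx1, Gde1, Ramp1, Chst4, Clca1, Rgs2, Gsta4, S100a6, Rep15, Fer1l6 and Ifi27l2b. Chst4, a sulfotransferase that acts on O-glycans, stood at 34.1 and 19.8 CPM against 123 and 104 CPM (-2.55, SE 0.22, adjusted p = 1.21e-09). Ramp1, a subunit of the receptor for the neuropeptide CGRP, stood at 60.7 and 48.6 CPM against 326 and 144 CPM (-2.56), and Ccl6, a chemokine, at 230 and 324 CPM against 1210 and 1680 CPM (-2.87, adjusted p = 0.0345). Mptx1, a mucosal pentraxin, stood at 3.54 and 26.4 CPM against 15.3 and 119 CPM (-2.62, SE 0.27, adjusted p = 4.25e-08). Its level differed more between the mice than between the classes, and within each mouse goblet cells were higher. Colipase (Clps), the cofactor of pancreatic lipase, stood at 18.4 and 39.6 CPM against 191 and 152 CPM (-3.15, SE 0.70, adjusted p = 0.0127). Paneth cells held Clps at 5890 and 6160 CPM and Ccl6 at 1190 and 1030 CPM, while Chst4 was at 0.284 and 0 CPM there. The part of Paneth transcripts in these differences was not tested. Ifi27l2b, an interferon-inducible gene, stood at 390 and 157 CPM against 1330 and 694 CPM (-2.44, SE 0.21, adjusted p = 5.19e-09).

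Within single cells the 2 programmes overlapped in part. The median mucus share was 3.30% and 4.66% of UMIs in progenitors, 15.3% and 14.9% in goblet cells and 0.0656% and 0.0468% in TA cells. The median share of S phase and G2 and mitosis genes was 0.696% and 0.472% in progenitors, 0.0546% and 0.0465% in goblet cells and 0.876% and 0.661% in TA cells. Progenitors were thus between the other classes on the mucus share and near TA cells on the cycle share. Of the progenitors, 54 (33.3%) and 35 (41.7%) lay within the central 10 to 90% range of goblet cells for the mucus share, and all others lay below it. For the cycle share 26 (16.0%) and 25 (29.8%) lay within the goblet range, and all others lay above. By this count fewer progenitors lay in the goblet range for the cycle share than for the mucus share. The classes were drawn by expression, and goblet cells within the progenitor range were not counted. Which share divides the classes more sharply is therefore not read from it. Within progenitors the rank correlation of the shares was -0.18 and -0.30 over 162 and 84 cells, and within goblet cells it was -0.42 and -0.51 over 277 and 138 cells. These describe cells that share a library, and the shares of 1 cell sum with all its other genes.

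**Figure D5:**
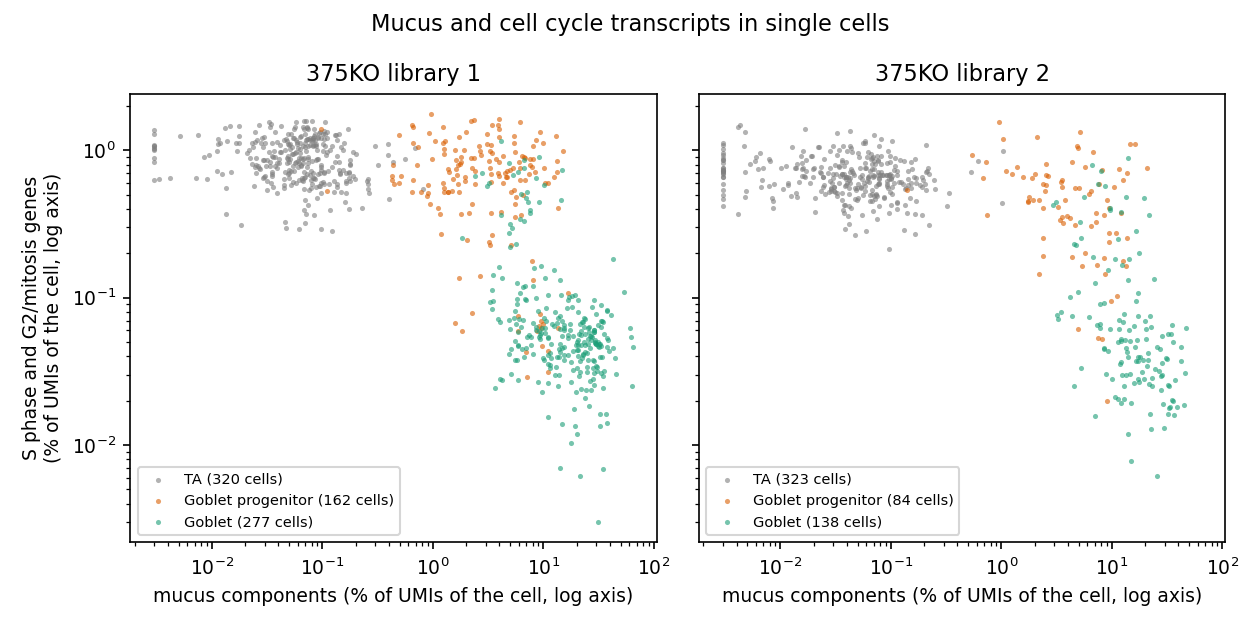
Share of a cell's UMIs in mucus components (x axis, %, log scale, values under 0.003% drawn at 0.003) and in S phase and G2 and mitosis genes (y axis, %, log scale), with 1 point per cell in each 375KO library. Progenitors (orange) join the high cycle share of TA cells (grey) to a raised mucus share, and goblet cells (green) lie at a higher mucus share and mostly at a low cycle share.

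Detection in single cells was counted from the same UMIs and classes, so it describes the classes and is no separate support. Muc2 was seen in 92.0% and 90.5% of progenitors and in all goblet cells, against 8.12% and 5.88% of TA cells. After thinning to 5000 UMIs it was seen in 89.5% and 89.3% of progenitors and in 3.75% and 1.86% of TA cells. Top2a was seen after thinning in 62.3% and 56.0% of progenitors, 3.62% and 5.8% of goblet cells and 74.4% and 68.4% of TA cells. Before thinning its shares were 80.9% and 77.4%, 6.86% and 15.2%, and 87.2% and 84.5%. Atoh1 was seen after thinning in 30.9% and 33.3% of progenitors, 61.6% and 60.9% of goblet cells and 0.938% and 0% of TA cells. Its unthinned shares were 83.3% and 57.1%, 86.6% and 88.4%, and 2.81% and 1.24%. In library 1 the shares of progenitors and goblet cells were therefore close before thinning and apart after it, and in library 2 they were apart in both. TA cells, with a median depth of 20811 and 16966 UMIs, stand for a class that should largely lack Muc2 and Atoh1. Whether their UMIs of these genes were free RNA or their own was not tested.

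Against TA cells, fewer genes passed than against goblet cells, and most of them were higher in progenitors with all classes in the fit. Of 11013 genes, 686 (6.23%) passed, 599 (5.44%) higher and 87 (0.79%) lower in progenitors. Without the mouse as a term 259 passed, all of them higher. Of the lists, 8 mucus components, 23 other goblet markers, 20 ER genes, 21 genes of the secretory pathway, 14 O-glycan enzymes and 14 lineage factors were higher, and none of these lists had a lower gene. No S phase and no G2 and mitosis gene passed in edgeR's test (medians -0.15 and -0.43). In the fit of the 4 sums of progenitors and TA cells alone 1989 genes passed, 1078 higher and 911 lower, and 21 G2 and mitosis genes were among the lower. Muc2 was higher by 6.83 on the log2 scale (adjusted p = 0.00361), Atoh1 by 6.02 (adjusted p = 2.46e-15) and Dll1 by 3.54 (adjusted p = 1.07e-10).

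The genes with the largest steps from TA cells were named by the same rule, 6 in each direction. The higher ones were Itln1, Spink4, Ccl6, Tpsg1, Rep15 and Ccl9, all of them secreted or goblet genes. The TA cells of library 2 had Itln1, Ccl6, Rep15 and Ccl9 at 0 CPM, so the fitted folds rest on few TA counts, and neither the folds nor their order is given. Tpsg1, a tryptase, stood at 130 and 189 CPM in progenitors and 0.474 and 0.175 CPM in TA cells (adjusted p = 5.2e-05). The lower ones were Arg2, Ckb, Pnp2, Glod5, Fam136a and Khk, each by less. Arg2, the mitochondrial arginase, stood at 84.3 and 25.2 CPM against 188 and 72.4 CPM (-1.25, SE 0.20, adjusted p = 3.59e-05), and ketohexokinase Khk had a log2 fold change of -0.88. In each mouse progenitors held less Arg2 than TA cells, though the progenitors of library 1 exceeded the TA cells of library 2. Ascl2, a Wnt-driven stem cell factor, was the 1 stem cell gene that passed (7.63 and 5.4 against 16.8 and 23.3 CPM, -1.42, adjusted p = 0.00867). With the doublet score limit 1140 genes passed, 618 higher and 522 lower, and 45 oxidative phosphorylation genes were among the lower, against 1 with all cells.

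The step from progenitor to goblet cell was then set against the step from TA cell to enterocyte, as a difference of log2 fold changes. Of 11013 genes, 2729 (24.8%) differed between the steps, 1109 (10.1%) in favour of the goblet step and 1620 (14.7%) in favour of the absorptive step. Without the mouse as a term 855 passed. Of the lists, 17 of 30 G2 and mitosis genes and 9 of 30 S phase genes were on the goblet side, with medians of 1.71 and 0.99. Among cells with a doublet score under 0.1 these counts fell to 5 and 1. For Cdk1 the difference was 2.96. It stood at 161 and 103 CPM in progenitors and 9.52 and 8.05 in goblet cells, and at 207 and 109 CPM in TA cells and 1.24 and 2.06 in enterocytes. Cdk1 was thus lower at the end of both steps, and by more in the absorptive one. Of the ribosome biogenesis genes 13 of 25 were on the goblet side and none on the other. Of the oxidative phosphorylation genes 38 of 75 were on the absorptive side with a median of -0.61, and 3 were with the doublet score limit.

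Single genes showed lineage-bound and shared parts of these steps. By rule the 6 genes furthest to the goblet side were Car8, Foxa3, Atoh1, Agr3, Tnfaip8 and Hpd. Car8, a carbonic anhydrase relative without enzyme activity, stood at 64.8 and 43.2 CPM in progenitors, 186 and 131 in goblet cells, 9.01 and 4.72 in TA cells and 0.155 and 0.187 in enterocytes (difference 6.88, SE 0.49, adjusted p = 8.25e-12). For Car8 the libraries taken singly gave 5.4 and 4.58. Atoh1 and Hpd each stood at 0.0516 and 0 CPM in enterocytes, so the order of these 6 genes is not read. Hpd did not pass under the doublet score limit or among cells of 10000 to 20000 UMIs, while the other genes did. Furthest to the absorptive side were the enterocyte genes Fabp6, Cyp3a25, Fam151a, 2010003K11Rik, Hsd17b6 and Pdzk1. All but Fabp6 had few UMIs in both goblet classes, so their order is not read. Pdzk1, for one, had 3 and 0 UMIs in progenitors and 1 and 0 in goblet cells. Fam151a and Hsd17b6 did not pass under the doublet score limit, while Cyp3a25, 2010003K11Rik and Pdzk1 did. With DESeq2, Fabp6, Fam151a and Pdzk1 did not pass. Fabp6, the ileal bile acid binding protein, stood at 2690 and 1110 CPM in enterocytes, 152 and 9.6 CPM in progenitors and 0 and 4.02 CPM in goblet cells. Its difference passed (adjusted p = 0.00659), and it did not under the doublet score limit (adjusted p = 0.402). The chloride loader Slc12a2 stayed in goblet cells and not in enterocytes (5.06 and 11 CPM), a difference of 4.11 (adjusted p = 0.00107). Cftr was on the absorptive side (47.2 and 57.2 CPM in enterocytes, -2.14, adjusted p = 0.0015), as were the anion exchangers Slc26a3 (-4.70) and Slc26a6 (-5.91). The Notch-modifying glycosyltransferase Lfng (4.37, adjusted p = 3.95e-06) was the 1 Notch gene on the goblet side, against Nrarp, Rfng and Numb on the other.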

How the data were processed

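UMI counts per gene and cell were deposited by the authors for each library. Per the labels they were made with Cell Ranger 3.0.1 on mm10, with Seurat 3.2.1 named for the analysis. The authors' methods also name SoupX removal of free RNA, without saying to which deposited file it applies, and removal of called doublets and of cells with few genes or a high mitochondrial share. The deposited doublet score and mitochondrial percent were used as the authors gave them, and the sctransform score table was not used here. Class names were joined by cell order. Of 3275 kept cells, 3275 matched the deposited count table of the whole study exactly in UMI total and gene number. In the named matrices, which hold more genes and gave every result, 1358 did, and the count table lacked at most 1.271% of a cell's UMIs. Its 2937 columns of another series were not used, and the libraries shared 0 cell barcodes. Library 1 held 7665 barcodes with 64305085 UMIs and library 2 held 1251 with 23675011.

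Counts of the named matrices (27998 genes) were summed per library and class into 18 sums of 9 epithelial classes. Progenitor sums held 5372527 and 1667044 UMIs and goblet sums 3782368 and 2236857. Sums were filtered with filterByExpr, scaled by TMM and fitted with the quasi-likelihood test of edgeR 4.0.16 (R 4.3.3), with class and mouse as terms and 8 residual degrees of freedom. The mouse is a block because sums of 1 library come from the same animal. The library differences of progenitors correlated with those of goblet cells at 0.473 over 11013 genes. Tests were two-sided, with p values adjusted by the Benjamini-Hochberg method over all genes and a threshold of 0.05. Genes were named by rule: the 14 largest changes per direction (6 in the other comparisons) among those that passed, had a mean of at least 50 CPM in a class and had the same sign in both libraries, beside members of the fixed lists. Genes with at most 3 goblet UMIs carry the ratio of pooled rates in place of a fold change. Intervals cover counting error only. DESeq2 1.42.0 and other cell sets, filters and scalings served as alternatives. The cells of 10000 to 20000 UMIs were added as an alternative after the data had been seen. The members, lists and comparisons were chosen with earlier results of these data known. Promoters come from the RefSeq table of GRCm38.p6 and gene positions from GENCODE M21.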

Additional observations from a re-analysis of the deposited data

Results flagged for a closer look

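The comparison of the steps was picked out because 2 effects of the same kind were tested against each other directly. The step from goblet progenitor to goblet cell and the step from TA cell to enterocyte differed in 2729 genes by edgeR's quasi-likelihood test with Benjamini-Hochberg adjustment (1109 towards the goblet step and 1620 towards the absorptive step). Among cells with a doublet score under 0.1 the number was 1437, of which 1368 were among the 2729. Enterocytes and TA cells were not compared with each other for their own sake.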

How the results depend on the processing

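The number of genes called between progenitors and goblet cells, 3208, was 1044 without the mouse as a replicate block, 1686 with cells thinned to 5000 UMIs, 2138 with a doublet score under 0.1 and 2063 among cells of 10000 to 20000 UMIs. It stayed within 1.5 times of 3208 with DESeq2 (2727), no filter (3175), total-UMI scaling (4363), the stricter cell filter (3094) and the 4 sums alone (2877). The step comparison, 2729, gave 855, 1581, 1437 and 1532 under the first 4 of these settings and 1792 under the stricter filter. The comparison with TA cells, 686, gave 259 without the block, 1140 under the doublet score limit and 1989 with the 4 sums of progenitors and TA cells alone. Thinning tests fewer genes, the score and UMI limits use fewer cells, and the 4 sums leave 1 residual degree of freedom. The cause of the other changes was not tested. The libraries' shares of progenitors differed by 12.1 percentage points under the doublet score limit and by 15.0 in the UMI window, with means of 22% and 19.2%. The mean without a library ran from 36.9% to 37.8%.

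Of the 121 named genes tested between progenitors and goblet cells, those that turned direction had not passed the test before or after. Under total-UMI scaling Atf6 was at 0.01, Canx at 0.34, Ern1 at 0.12, Sox9 at 0.32 and Zfp36l1 at 0.34. Under the doublet score limit Dll4 was at 0.11, Foxa2 at 0.45, Sox9 at 0.19, Zfp36l1 at 0.10 and Gip at -0.11. In the UMI window Foxa2 was at 0.18 and Zfp36l1 at 0.06, and with thinned cells Ern1 was at 0.16. Without the block 28 of the 121 lost their call, and 12 did under the doublet score limit. An alternative restricted to cells in G1 was not run, since no phase label was used here. The number of mice (2), and progenitors that hold more UMIs and higher doublet scores, limit all counts given here.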
